A study of Mus musculus with 7 samples.

Results

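The BCL2 family holds genes whose proteins protect the mitochondrial outer membrane and genes whose proteins breach it, and 10 of them were followed here by gene symbol in sorted myeloid cells. The survival members were Bcl2a1a, Bcl2a1b, Bcl2a1d, Mcl1, Bcl2 and Bcl2l1, and the death members were Bax, Bak1, Bcl2l11 and Bid. Of the 10, 9 have a row with their symbol, among 19494 genes with a symbol in all, and Bax was not analysed here. Each of the 9 is represented by a single transcript cluster, the group of probes by which the array reports a gene.

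Survival proteins such as BCL-2, BCL-XL (encoded by Bcl2l1), MCL-1 and the Bcl2a1 proteins hold the pore-forming effectors BAK (encoded by Bak1) and BAX in check. BH3-only proteins such as BIM (encoded by Bcl2l11) and BID tip this balance by binding the survival proteins or the effectors, after which the outer membrane opens, cytochrome c leaves the mitochondria and caspases are activated. In mice, Mcl1 is needed for the survival of neutrophils, and Bcl2a1 genes are known as NF-κB targets that are induced in activated leukocytes.

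CD45+CD11b+ cells of the spleen, which include neutrophils, monocytes and macrophages, came from BALB/cAnN recipients of an allogeneic transplant, with 4 mice in the ROCK1/2-inhibitor group (R1 to R4) and 3 in the vehicle group (V2 to V4). All mice were irradiated 2 times with 5 Gy and received bone marrow and T cells from C57BL6/N donors, and the labels give the genotype as wildtype. From day 4 the inhibitor group received Y-27632 at 8 mg/kg intraperitoneally for 10 days and the vehicle group PBS in the same volume of 100 µl, and the cells were sorted on day 14 after allo-HCT. No group without transplant or without T cells was analysed here, so all values describe mice with aGVHD induction, and the ages of the single mice were not given in the labels. One label field describes CXCL12-abundant reticular cells in place of myeloid cells, while mean log2 intensities of 8 reticular stroma markers lay between 1.96 and 2.25 in the 7 arrays and the mean of the gate markers Itgam (CD11b) and Ptprc (CD45) between 8.82 and 9.81.

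Values are log2 intensities after Robust Multi-Array Average (RMA) normalization, 1 array per mouse, with array medians of 2.14 to 2.19 and upper quartiles of 3.35 to 3.68. The groups were compared with limma over 22139 transcript clusters, with Benjamini-Hochberg adjusted p-values and a threshold of 0.05. In this comparison 2.23% of all transcript clusters passed, 1.06% as higher and 1.17% as lower with the inhibitor, and 13.3% had no overlap between vehicle and inhibitor mice.

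Bcl2a1a, Bcl2a1b and Bcl2a1d rose with ROCK1/2-inhibition, while the other 6 members had lower means in inhibitor-treated mice and did not pass the test. Of the 9 members, 3 were called higher and 0 lower, against 2.23% of all transcript clusters called in either direction. An unadjusted p under 0.05 was reached by 6 members, against 15.3% of all transcript clusters (limma). The groups did not overlap for 7 members, 3 higher and 4 lower, against 6.22% and 7.03% of all transcript clusters. The 3 higher are the Bcl2a1 copies. Among the 4 lower, the groups nearly touched for Bid (2.6010 in R3, 2.6015 in V3) and Bcl2 (2.60 in R4, 2.62 in V3). The median log2 fold change of the 9 members was −0.29, and that of all transcript clusters was 0.0049. In sorted bulk cells, a change in the make-up of the cells and a change in RNA per cell cannot be told apart.

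**Figure D1:**
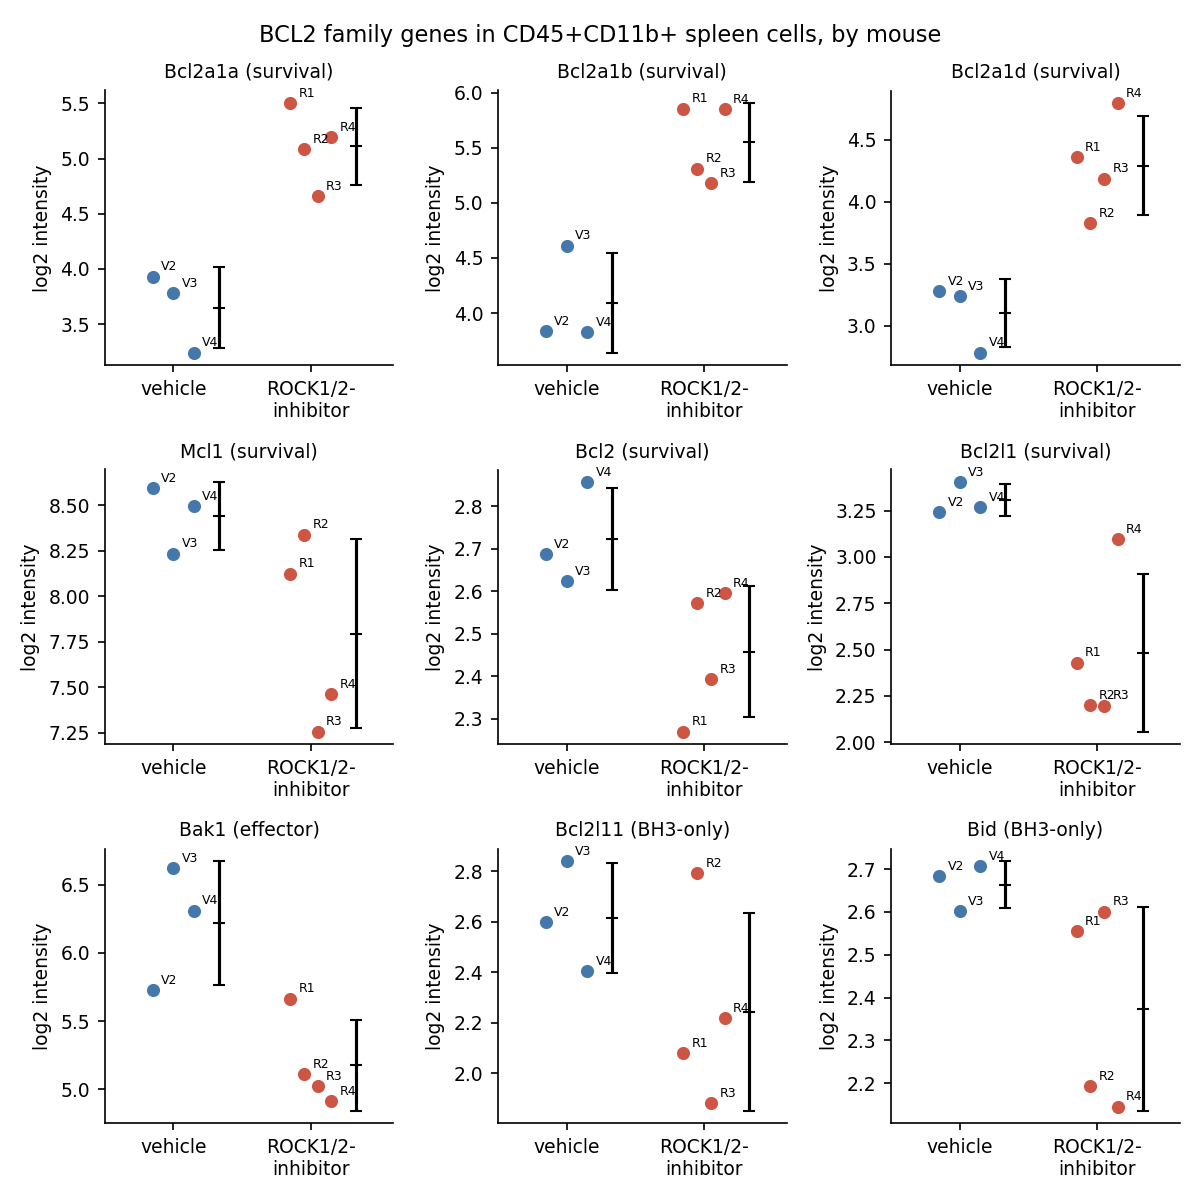
Log2 intensity (vertical axes, a separate range for each gene) of the 9 BCL2 family members in each vehicle mouse (blue, V2 to V4) and each ROCK1/2-inhibitor mouse (red, R1 to R4), with the mean ± SD of each group in black. All 4 inhibitor mice lie above all 3 vehicle mice for the 3 Bcl2a1 genes, and Mcl1 and Bcl2l11 are the members whose groups overlap.

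The Bcl2a1 genes are copies of a single survival gene that lie on mouse chromosome 9. Their promoters are shown first because they tell how alike the copies are near their annotated starts. The sequences of their transcripts were not compared. The stretches below were read from RefSeq's GRCm38.p6 table, 5′ to 3′, and cover the part of the 3 promoter windows that could be aligned. Relative to the annotated start they begin 206 bases before it in Bcl2a1a, 250 in Bcl2a1b and 200 in Bcl2a1d. Capitals mark bases that are not the same in all 3 copies or have no partner in one of them.
Bcl2a1a promoter (chr9:88956714-88956969, plus strand): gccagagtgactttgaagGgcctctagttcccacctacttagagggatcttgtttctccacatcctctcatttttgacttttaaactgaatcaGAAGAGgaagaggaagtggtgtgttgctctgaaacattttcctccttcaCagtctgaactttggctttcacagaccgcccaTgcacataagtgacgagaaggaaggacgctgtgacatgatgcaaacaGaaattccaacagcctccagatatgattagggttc
Bcl2a1b promoter (chr9:89199023-89199278, plus strand): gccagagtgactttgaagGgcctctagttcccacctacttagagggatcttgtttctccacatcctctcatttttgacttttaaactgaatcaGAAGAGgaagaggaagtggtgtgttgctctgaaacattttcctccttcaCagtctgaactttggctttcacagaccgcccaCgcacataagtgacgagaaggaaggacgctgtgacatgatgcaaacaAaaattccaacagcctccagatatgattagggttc
Bcl2a1d promoter (chr9:88731801-88732050, minus strand): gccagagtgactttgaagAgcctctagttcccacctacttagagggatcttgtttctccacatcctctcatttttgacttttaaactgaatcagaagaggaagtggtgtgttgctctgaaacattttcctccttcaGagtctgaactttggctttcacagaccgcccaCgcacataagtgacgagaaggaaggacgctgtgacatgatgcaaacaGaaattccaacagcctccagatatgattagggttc

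Bcl2a1a and Bcl2a1b differed at 2 of 256 aligned bases in this stretch, an identity of 99.2%. Bcl2a1d differed from each of them at 3 of 250 aligned bases, an identity of 98.8%, and lacked 6 bases, the GAAGAG in capitals, of a short repeat that the other copies have. The letters GAGGAA, the core of the PU box bound by the myeloid transcription factor PU.1, were searched on both strands of the 300-base windows and found in 6 of the 12 windows of the members (Bak1, Bcl2, Bid and the 3 Bcl2a1 copies), against 28.3% of 32851 windows of the table. The κB consensus, searched in the same way, was found in 1 of the 12 windows, which belongs to Bcl2l1, against 8.46% of all windows. The GAGGAA matches of the 3 Bcl2a1 copies lie in the near-identical stretch above and are not separate matches. A match of letters is a description of the window only, and the motifs were chosen with the results known.

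Bcl2a1a had log2 intensities of 3.93, 3.78 and 3.24 in V2, V3 and V4 and of 5.50, 5.09, 4.66 and 5.20 in R1 to R4. The lowest inhibitor mouse, R3, lay above the highest vehicle mouse, V2. The mean was 3.65 ± 0.36 (SD, n = 3) in vehicle mice and 5.11 ± 0.35 (SD, n = 4) in inhibitor mice, which is a rise of 1.46 on the log2 scale or 2.76-fold (standard error 0.24, adjusted p = 0.0239 from limma). The study also drew Bcl2a1a in a heatmap of these arrays, so the values here are no independent evidence. The study's text describes downregulation of genes related to TNF/NF-κB signaling in these cells and does not name Bcl2a1a.

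Bcl2a1b had log2 intensities of 3.83, 4.61 and 3.83 in V2, V3 and V4 and of 5.85, 5.31, 5.18 and 5.85 in R1 to R4. V3 stood above the other vehicle mice and below every inhibitor mouse. The mean was 4.09 ± 0.45 (SD, n = 3) in vehicle mice and 5.55 ± 0.36 (SD, n = 4) in inhibitor mice, which is a rise of 1.46 on the log2 scale or 2.75-fold (standard error 0.26, adjusted p = 0.0284 from limma).

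Bcl2a1d had log2 intensities of 3.28, 3.24 and 2.78 in V2, V3 and V4 and of 4.36, 3.83, 4.19 and 4.79 in R1 to R4. Its vehicle values lay below the upper quartile of their arrays, and its inhibitor values above. The mean was 3.10 ± 0.28 (SD, n = 3) in vehicle mice and 4.29 ± 0.40 (SD, n = 4) in inhibitor mice, which is a rise of 1.19 on the log2 scale or 2.28-fold (standard error 0.24, adjusted p = 0.0417 from limma).

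Across the 7 arrays the copies correlated in pairs at 0.91 to 0.93, and at 0.52 to 0.61 after each group's mean was taken off. Probes of closely related copies may read each other's RNA, which was not tested, so the 3 rows cannot be taken as independent measurements. The copy Bcl2a1c, outside the members, had a mean of 1.58 ± 0.20 (SD, n = 3) with vehicle and 1.83 ± 0.19 (SD, n = 4) with inhibitor (log2 fold change 0.26, adjusted p = 0.561 from limma), and both means lie below the array medians. The calls depended on single mice. Without R2, R3, R4, V2 or V3, none of the 3 copies was called. In those fits 2, 4, 2, 2 and 34 of 22139 transcript clusters passed, against 494 with all mice. With any 1 mouse left out, unadjusted p-values were at most 0.00071 for Bcl2a1a, 0.0019 for Bcl2a1b and 0.0039 for Bcl2a1d (limma). The highest adjusted p-values, all without V2, were 0.0743 for Bcl2a1a, 0.117 for Bcl2a1b and 0.115 for Bcl2a1d, and the lowest, all without R1, were 0.0179, 0.0269 and 0.0438 (limma). Without V4, 534 transcript clusters passed, and Bcl2a1a was called (adjusted p = 0.0386 from limma) while the other copies were not. In these fits the log2 fold change was 1.26 to 1.61 for Bcl2a1a, 1.33 to 1.72 for Bcl2a1b and 1.02 to 1.34 for Bcl2a1d.

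Some markers of neutrophils differed between the same groups, while most of the mature and secondary granule markers were not called. Of 14 measured markers of mature neutrophils, 4 were called higher and 0 lower, and their mean log2 intensity was 8.07 to 8.13 in vehicle mice and 8.49 to 8.95 in inhibitor mice. The called markers were Stfa2, Stfa2l1, Clec4d and Il1b, with log2 fold changes of 1.48 to 1.70. Of those not called, Ccrl2 was at 0.71, Wfdc21 at 0.50, Retnlg at 0.31, S100a9 at 0.27, S100a8 at 0.07 and G0s2 at 0.05. The neutrophil receptor genes Csf3r and Cxcr2 were at −0.01 and 0.01, Msrb1 at −0.26 and Mmp9 at −0.32. In this list 11 markers were above 0 and 3 below. The mean over the list was 0.56 and the median 0.29. Of 8 measured markers of primary granules and early neutrophils, 4 were called lower and 0 higher, with means of 6.56 to 6.97 in vehicle mice and 5.00 to 6.14 in inhibitor mice. Of 10 secondary granule markers, 3 were called lower, with means of 10.55 to 10.83 and 9.96 to 10.17. Inflammatory monocyte markers had 2 of 12 called higher, Clec4a3 at a log2 fold change of 1.61 and Ms4a4c at 1.35. In that list 6 markers were above 0 and 6 below. Its means of 6.14 to 6.56 with vehicle and 6.56 to 6.81 with inhibitor overlapped. The groups were apart both in the Bcl2a1 mean and in the mature neutrophil mean. Among the 4 inhibitor mice, R1 and R4 had the highest Bcl2a1 means and R2 the highest mature neutrophil mean. The part of mature neutrophils in the rise of Bcl2a1 was not tested.

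**Figure D2:**
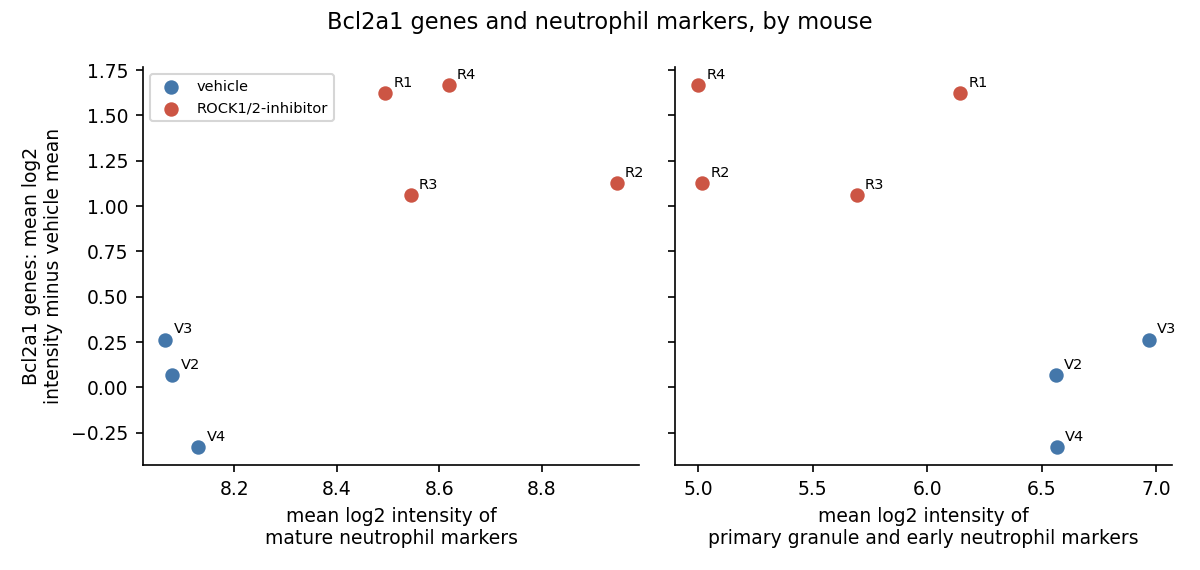
Mean log2 intensity of the 3 Bcl2a1 genes minus the vehicle mean (vertical axis) against the mean log2 intensity of 14 mature neutrophil markers (left) and of 8 primary granule and early neutrophil markers (right), 1 point per mouse, vehicle in blue and ROCK1/2-inhibitor in red. The groups are apart on both axes in both panels. Among the inhibitor mice, R2 has the highest mature neutrophil mean, at 8.95, and R4 the highest Bcl2a1 mean.

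By Pearson correlation over the 7 arrays, the genes most like the mean of the Bcl2a1 copies were Il12rb2 (0.98), Clec4a3 (0.97), 1700007K13Rik (0.97), Rps25 (0.96) and Olfr206 (0.96). The copies and these genes share the arrays and the separation of the groups. Il12rb2, 1700007K13Rik and Olfr206 lay below the median in all 7 arrays. Clec4a3, a C-type lectin receptor gene of myeloid cells, is also 1 of the 2 called inflammatory monocyte markers. Of the 5, Clec4a3 rose by 1.61 (adjusted p = 0.0178) and Rps25, a ribosomal protein gene, by 0.97 on the log2 scale (adjusted p = 0.0340, both from limma). Neither was called without R2, R3, R4 or V2, with adjusted p-values of up to 0.0743 for Clec4a3 and 0.131 for Rps25 (limma), and Rps25 was also lost without V3 or V4.

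Mcl1, the survival gene on which mouse neutrophils depend, had log2 intensities of 8.59, 8.23 and 8.50 in V2, V3 and V4 and of 8.12, 8.34, 7.26 and 7.46 in R1 to R4. The inhibitor mice split, with R1 and R2 near the vehicle mice and R3 and R4 below them. Its log2 fold change was −0.65, with a 95% interval from −1.25 to −0.04 and an adjusted p = 0.286 from limma, which did not pass.

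Bcl2l1, which encodes BCL-XL, had log2 intensities of 3.24, 3.40 and 3.27 in V2, V3 and V4 and of 2.43, 2.20, 2.20 and 3.10 in R1 to R4. The vehicle mice were close together (SD 0.09, n = 3), and R4 stood close below them while the other inhibitor mice were lower. The log2 fold change was −0.82 (95% interval −1.33 to −0.31, adjusted p = 0.100 from limma), which did not pass. Bcl2, the gene that gave the family its name, had log2 intensities of 2.69, 2.62 and 2.86 with vehicle and of 2.27, 2.57, 2.39 and 2.60 with inhibitor. The groups touched without overlap, and the log2 fold change of −0.27 (95% interval −0.61 to 0.07, adjusted p = 0.481 from limma) did not pass. Both genes lay below the upper quartile of all 7 arrays, where a change of a dim gene can be hard to see.

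Bak1, the pore-forming effector that was measured, had log2 intensities of 5.73, 6.62 and 6.31 in V2, V3 and V4 and of 5.66, 5.11, 5.02 and 4.91 in R1 to R4. R1, the highest inhibitor mouse, lay just below V2, the lowest vehicle mouse. The means were 6.22 ± 0.45 (SD, n = 3) and 5.18 ± 0.33 (SD, n = 4), a log2 fold change of −1.04, or a level 2.06-fold lower, with an adjusted p = 0.0663 from limma. Bak1 passed in several alternative fits. The adjusted p was 0.0251 without R1, at a log2 fold change of −1.20, and 0.0448 with array weights, and it was 0.212 without V3, at a log2 fold change of −0.84.

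The BH3-only genes differed less. Bcl2l11, which encodes BIM, had log2 intensities of 2.60, 2.84 and 2.40 in V2, V3 and V4 and of 2.08, 2.79, 1.88 and 2.22 in R1 to R4. R2 lay among the vehicle mice and the groups overlapped, with a log2 fold change of −0.37 (95% interval −0.88 to 0.14, adjusted p = 0.522 from limma). Bid, whose protein is cut by caspase-8 and links death receptors to mitochondria, had log2 intensities of 2.68, 2.60 and 2.71 in V2, V3 and V4 and of 2.55, 2.19, 2.60 and 2.14 in R1 to R4. R3 and V3 had nearly the same value, and the log2 fold change was −0.29 (95% interval −0.66 to 0.08, adjusted p = 0.483 from limma). Both genes were dim, below the upper quartile on all 7 arrays.

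To set survival against death members in every mouse, each gene was taken relative to its vehicle mean and averaged over its role group. The 6 survival members together were at 0.04, 0.10 and −0.14 in V2, V3 and V4 and at 0.54, 0.34, 0.09 and 0.61 in R1 to R4, so R3 lay within the vehicle range. The 3 death members were at −0.16, 0.19 and −0.03 in V2, V3 and V4 and at −0.40, −0.47, −0.66 and −0.74 in R1 to R4, below all vehicle mice. The survival mean minus the death mean was 0.21, −0.09 and −0.11 with vehicle and 0.94, 0.80, 0.76 and 1.35 with inhibitor. The groups did not overlap in this difference, but it rests on the Bcl2a1 copies. Without the copies, the mean log2 fold change of the survival members was −0.58, and that of the death members was −0.57. The death mean leans on Bak1 at −1.04, since the mean of the 2 BH3-only genes was −0.33. No p is given for these means, since the members were chosen with results of these data known.

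The survival members did not move as 1 group. The Bcl2a1 copies alone were at 1.62, 1.13, 1.06 and 1.67 in R1 to R4, while Mcl1, Bcl2 and Bcl2l1 together were at −0.55, −0.45, −0.87 and −0.44. The mean log2 fold change was 1.37 for the Bcl2a1 copies, −0.58 for the other 3 survival members and −0.57 for the 3 death members. The mean of 0.40 over all survival members turned to −0.09 when the copies were counted as 1 gene, so its sign rests on the number of copies.

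**Figure D3:**
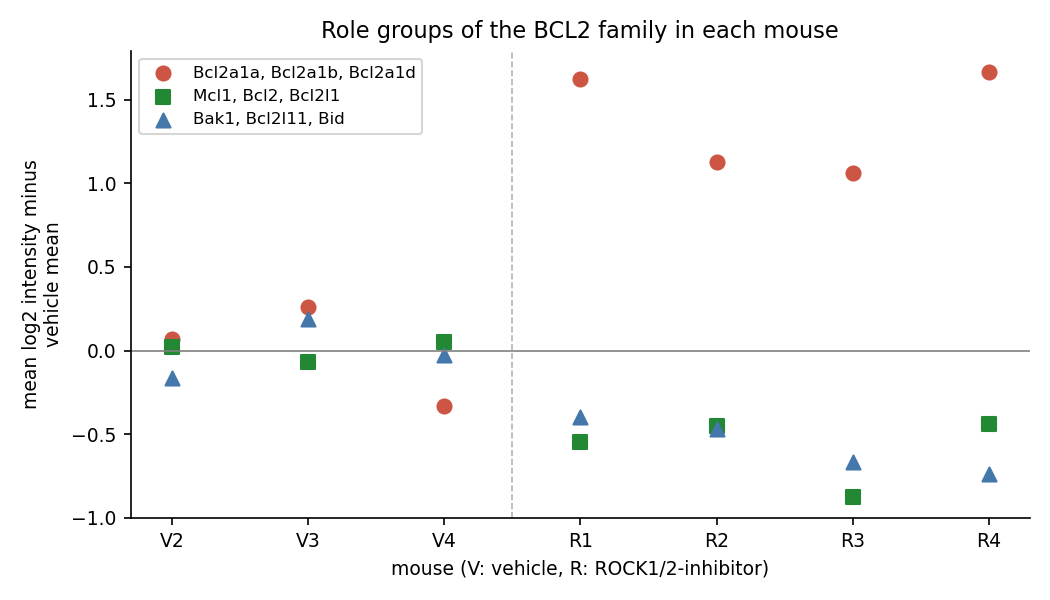
Mean log2 intensity minus the vehicle mean (vertical axis) in each mouse (horizontal axis) for the 3 Bcl2a1 copies (red circles), for Mcl1, Bcl2 and Bcl2l1 (green squares) and for the death members Bak1, Bcl2l11 and Bid (blue triangles). In the inhibitor mice the Bcl2a1 copies lie between 1.06 and 1.67, and both other groups lie below 0.

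Beyond the members, 16 further BCL2 family and BH3-only genes were measured, and 0 of them passed the test in either direction with limma, against 2.23% of all transcript clusters. Of the 16, 4 were above 0 and 12 below, with a median log2 fold change of −0.28. Pmaip1, which encodes the BH3-only protein NOXA, a binder of MCL-1 and of the Bcl2a1 proteins, had log2 intensities of 3.19, 2.38 and 2.48 in V2, V3 and V4 and of 3.60, 4.19, 3.72 and 3.19 in R1 to R4. R4 was about level with V2, and the log2 fold change of 0.995 had an adjusted p = 0.0961 from limma. For Bbc3, which encodes the BH3-only protein PUMA, the log2 fold change was −0.65 (adjusted p = 0.303), that of Bcl2l10 −0.51 (adjusted p = 0.221) and that of the effector-like gene Bok −0.45 (adjusted p = 0.297, all from limma).

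**Figure D4:**
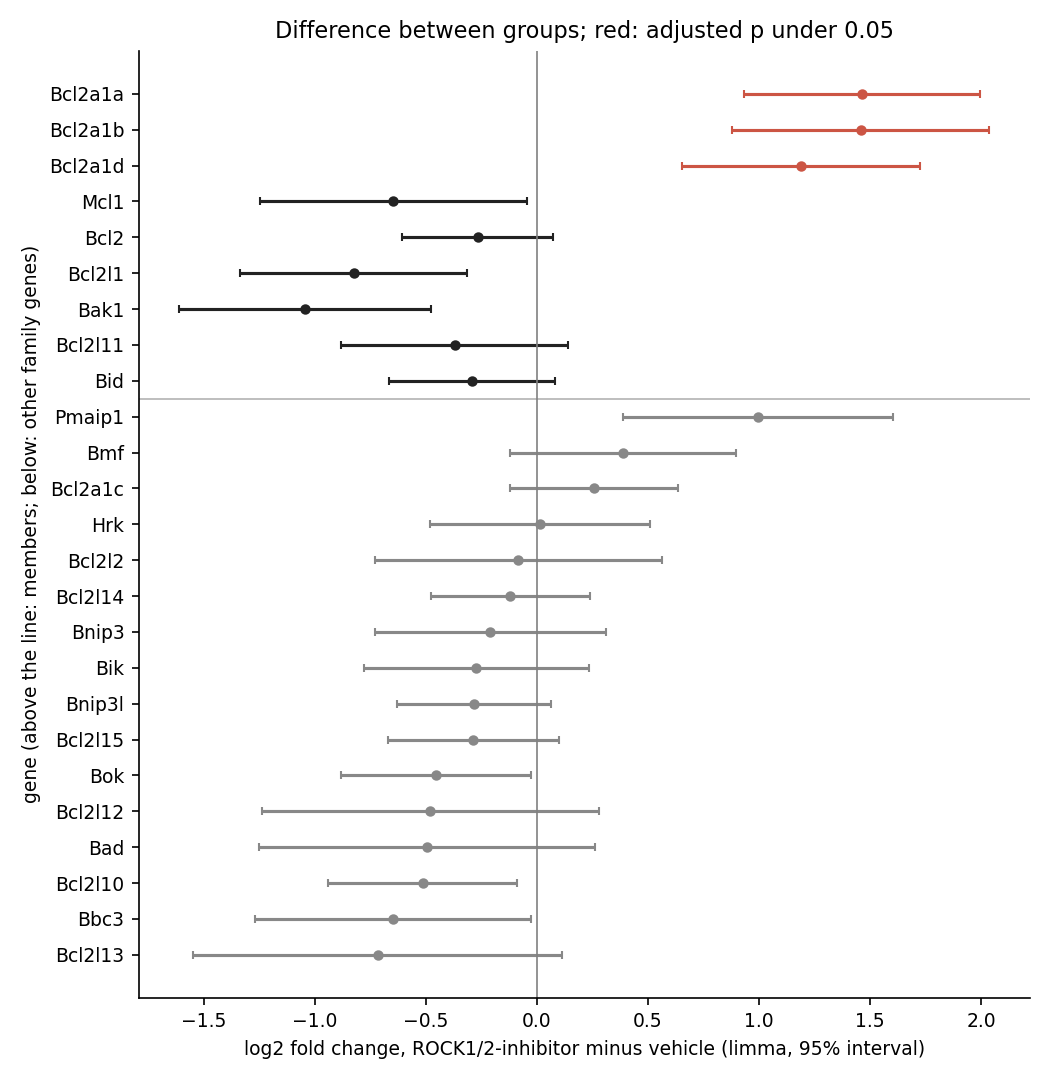
Log2 fold change of ROCK1/2-inhibitor against vehicle with its 95% interval from limma (horizontal axis) for the 9 members (above the line) and 16 other BCL2 family genes (below the line), 1 gene per row, with genes past an adjusted p of 0.05 in red. The 3 Bcl2a1 copies are the genes in red, and Pmaip1 at 0.995 is the highest of the other family genes.

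Downstream of the mitochondria, 15 genes of the apoptosome, the caspases and the proteins released from mitochondria were measured, and 0 passed in limma (5 above 0, 10 below, median −0.09). Among them the log2 fold change of Cycs, which encodes cytochrome c, was 0.62 (adjusted p = 0.265), that of the channel gene Vdac1 −0.59 (adjusted p = 0.238), that of Vdac3 0.87 (adjusted p = 0.248) and that of Casp2 −0.59 (adjusted p = 0.303, all from limma). Of 8 inhibitor of apoptosis genes 0 passed (6 above 0, 2 below, median 0.33). The log2 fold change of Xiap, a direct inhibitor of caspases, was 0.71 (adjusted p = 0.193), that of Birc6 0.63 (adjusted p = 0.396), that of Naip5 0.30 (adjusted p = 0.467) and that of the NF-κB target Birc3 −0.80 (adjusted p = 0.368, all from limma).

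The death receptor pathway, which reaches the mitochondria through BID, had 1 of 14 measured genes called lower and 0 higher (5 above 0, 9 below, median −0.12). Tnfrsf21, which encodes death receptor 6, fell, with log2 intensities of 3.58, 4.00 and 3.99 in V2, V3 and V4 and of 2.69, 2.86, 2.66 and 2.16 in R1 to R4 (log2 fold change −1.26, adjusted p = 0.0232 from limma). Leaving out R2, R3, R4, V2 or V3 ended this call, with an adjusted p of up to 0.0829 without V3 (limma). Casp8, the protease that cuts BID, had log2 intensities of 7.32, 7.67 and 8.28 with vehicle and of 8.73, 8.65, 8.70 and 8.65 with inhibitor. The inhibitor mice were close to each other and above every vehicle mouse, and the log2 fold change of 0.92 had an adjusted p = 0.0605 from limma. Leaving out 1 mouse gave log2 fold changes of 0.71 to 1.18, and Casp8 was called without V4 (adjusted p = 0.0193) but in none of the other 6 fits, with an adjusted p of up to 0.193 without V2 (limma). For the adaptor gene Fadd the log2 fold change was −0.84 (adjusted p = 0.123), that of the TNF receptor gene Tnfrsf1a −0.93 (adjusted p = 0.0618) and that of Fas 0.74 (adjusted p = 0.229, all from limma).

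Of 25 measured regulators of BCL2 family genes and proteins, 1 was called lower and 0 higher (14 above 0, 11 below, median 0.12). Akt1, a kinase that acts on BAD, fell, with a log2 fold change of −0.995 (adjusted p = 0.0402 from limma). It did not pass with a trended and robust variance (adjusted p = 0.0641) or without any 1 mouse other than R1, with an adjusted p of up to 0.132 without V3 (limma). The log2 fold change of Foxo3, a transcription factor that acts on Bcl2l11, was −0.79 (adjusted p = 0.104), that of Stat5b −0.74 (adjusted p = 0.121), that of Stat3 −0.76 (adjusted p = 0.208) and that of Huwe1, a ubiquitin ligase of MCL-1, 1.16 (adjusted p = 0.161, all from limma). With 1 mouse left out, Huwe1 was at 0.96 to 1.54 and Stat5b at −0.92 to −0.64. Both were called without R1 (adjusted p = 0.00770 and adjusted p = 0.0407) and in none of the other 6 fits, where the adjusted p reached 0.436 for Huwe1 and 0.359 for Stat5b, each without V2 (limma). Of 14 receptors that carry survival signals to myeloid cells 0 passed in limma (5 above 0, 9 below, median −0.06), with Csf2ra, a GM-CSF receptor subunit, at a log2 fold change of −1.25 (adjusted p = 0.136), Ifnar2 at 0.27 (adjusted p = 0.501), Flt3 at 0.25 (adjusted p = 0.546) and Csf1r at 0.28 (adjusted p = 0.613, all from limma).

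Lymphocytes express much Bcl2, and their markers were dim and did not pass the test. The mean log2 intensity was 2.05 to 2.21 over 10 T cell markers and 1.73 to 1.92 over 9 B cell markers in the 7 arrays, and 0 markers of either list passed in limma. Of the NK cell, plasma cell, dendritic cell, erythroid, platelet, eosinophil, basophil and stromal markers, 0 passed either. All 7 eosinophil markers had log2 fold changes below 0, with a median of −0.43. Of 11 macrophage markers, 1 was called higher, Aif1 (log2 fold change 2.24, adjusted p = 0.0292 from limma), and in that list 3 were above 0 and 8 below. Of the gate markers, Itgam differed by −0.42 (adjusted p = 0.378) and Ptprc by 0.30 on the log2 scale (adjusted p = 0.750, both from limma).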

How the data were processed

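Clariom S Mouse arrays measured RNA of the sorted cells, 1 array for each mouse. The deposited values are log2 intensities that the authors obtained by RMA, with probes summarized to genes through pd.clariom.s.mouse. The RNA kit is PicoPure in the labels and miRNeasy in the methods. Of 22203 rows, 22139 transcript clusters were tested and 64 other rows entered 1 alternative. Symbols came from a platform annotation that names 1 gene for 19572 rows and none for 2631, and the brightest row stands for a symbol. No source used here names the genome build of the array.

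The comparison used lmFit and eBayes of limma 3.58.1 under R 4.3.3 (limma is the tool the study's methods name), two-sided and without covariates, with Benjamini-Hochberg adjustment over all transcript clusters. Each array comes from a separate mouse, and 7 arrays limit the precision. Members and lists were chosen with earlier results of these data known. All members are named, and of each pathway list the called genes and up to 4 others with the smallest p. Bcl2a1c was added to these as a further copy. Promoters from RefSeq (GRCm38.p6) were aligned with Biopython 1.88 (local alignment). Plots were made with Python 3.11.15 and matplotlib 3.10.9. Alternatives were a trended and robust variance, array weights, renormalization (quantile, cyclic loess, medians), filters on rows, leaving out each mouse, and a replicate block.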

Additional observations from a re-analysis of the deposited data

Results flagged for a closer look

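In a group of 4 mice, 1 mouse lay far from the others for 5 of 73 measures, and for 0 of the 9 members. R1 stood apart for Birc6 (gap over range 0.887), Stat3 (0.915) and Itgam (0.854), and R4 for Olfr206 (0.909) and for the mean of the T cell markers (0.841). Chance gives this in about 1 group in 20.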

How the results depend on the processing

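The 494 transcript clusters called became 964 with the replicate block, a fit over the 6 arrays whose numbers both groups share and thus without R1, and 2 to 1035 when 1 mouse was left out. The number of members called was 3, 3 with the replicate block (Bcl2a1a, Bcl2a1b and Bak1, with Bcl2a1d at an adjusted p = 0.0768 from limma) and 0 to 4 with 1 mouse left out. Deviations of samples with the same number correlated at 0.096, −0.13 and −0.03. With so few mice these values cannot decide whether equal numbers mark pairs. The main comparison took no pairs. Counting the Bcl2a1 copies as 1 gene turned the mean log2 fold change of the survival members from 0.40 to −0.092. Of the values of single members under the alternatives, 0 changed direction, 18 fell short of the threshold (all of Bcl2a1 copies) and 6 passed it (all of Bak1). With 1 mouse left out, the unadjusted p of every copy was at most 0.0039 (limma). Without R2, R3, R4, V2 or V3, 2 to 34 transcript clusters passed and no copy was called. Without V4, 534 passed, while Bcl2a1b (adjusted p = 0.0600) and Bcl2a1d (adjusted p = 0.0856, both from limma) were not called. The cause of the lost calls was not tested. Besides the block and single mice, Bak1 passed with array weights, quantile and cyclic loess normalization and without the dimmest 25% of rows. Averaging several rows of a symbol was not run, since each member has 1 row. Bcl2, Bcl2l1, Bcl2l11 and Bid are dim on all arrays, which limits what can be seen of them.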
